A study of Homo sapiens with 20 samples.

Results

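The RNA contacts of U2AF2 and SRSF1 were compared in cells that overexpressed the splicing repressor hnRNP A1. The comparison covers the 3180 genes with a called iCLIP peak of at least 6 reads in all 6 libraries, of 16093 genes with such a peak in any of the 6. U2AF2 was pulled down in 3 libraries and SRSF1 in 3. All 6 come from TREX FLP-In 293T cells, derived from a human embryonic kidney line, that carry an inducible T7-tagged hnRNP A1. The cells were selected with antibiotics for 3 days and held in tetracycline for 24 h, and nuclear extracts went into the immunoprecipitation. The series holds 20 samples, 16 of them iCLIP, and control cells without the transgene give 3 U2AF2 and 3 SRSF1 libraries that are used in the last comparison. The labels number the libraries 1 to 3 and do not say that they came from separate cultures, so the p-values measure the spread between these libraries, which may be technical.

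iCLIP crosslinks proteins to RNA with ultraviolet light in living cells, pulls down 1 protein and sequences the RNA attached to it. U2AF2 is the large subunit of the U2 auxiliary factor. It binds the polypyrimidine tract upstream of the 3′ splice site and helps recruit the U2 snRNP to the branch point. SRSF1 is a founding SR protein. It binds purine-rich exonic enhancers, helps to define exons, and also acts in export, translation and decay of mRNA. hnRNP A1 binds exonic and intronic silencers and often opposes both. The measure used throughout is a gene's share: the reads in its peaks per 1000000 reads in all peaks of the library, written RPM. A share is not divided by the level of the RNA, so binding per molecule and RNA level cannot be told apart.

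The snoRNAs below are shown because small structured RNAs and the transcripts around them carried the widest gaps between the proteins. The sequences are the GENCODE 29 transcripts. They are box C/D snoRNAs, with the C box motif TGATGA and the last D box motif CTGA in capitals, both read on the transcript strand. SNORD34 holds no TGATGA. Of 288 SNORD transcripts in GENCODE 29, 77.4% hold TGATGA and 98.3% hold CTGA.
SNORD66: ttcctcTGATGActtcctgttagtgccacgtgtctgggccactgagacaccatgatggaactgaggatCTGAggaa
SNORD110: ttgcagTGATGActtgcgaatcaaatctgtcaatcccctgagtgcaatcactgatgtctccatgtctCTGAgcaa
SNORD12: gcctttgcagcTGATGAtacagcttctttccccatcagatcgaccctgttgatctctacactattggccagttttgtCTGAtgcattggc
SNORD34: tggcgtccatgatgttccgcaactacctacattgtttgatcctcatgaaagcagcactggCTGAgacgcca

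The proteins differed in depth and in how evenly their reads were spread. The U2AF2 libraries held 2701476, 2317615 and 3291468 reads in peaks, against 175293, 329448 and 271174 in the SRSF1 libraries. A peak of 6 reads is therefore worth 1.82 to 2.59 RPM with U2AF2 and 18.2 to 34.2 with SRSF1, and the requirement of a peak in all 6 libraries removes genes mostly through the SRSF1 libraries. A peak was present in all 3 U2AF2 libraries for 11418 genes, in all 3 SRSF1 libraries for 3477, and 4392 genes had one in all 3 U2AF2 libraries and in no SRSF1 library. U2AF2 library 3 was deposited down to 3 reads per peak and with other gene IDs. Its 95639 peaks under 6 reads, 10.0% of its reads, were left out. Across the tested genes, log2 shares correlated at Pearson's r of 0.931 to 0.977 between U2AF2 libraries, 0.805 to 0.847 between SRSF1 libraries and 0.240 to 0.316 between the proteins, where genes are not independent replicates. Of 8 genes listed as marks of these cells, vimentin (VIM) had a peak in all 6 libraries, E-cadherin (CDH1) in U2AF2 libraries only, and NEFM, NEFL and KRT18 in none. Of 6 blood cell markers, 5 had no peak in any library. The sixth, LYZ, had 168 to 175 RPM with U2AF2 and 0 to 85.6 with SRSF1.

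SRSF1 reads were concentrated. The 10 leading genes held 2.92 ± 1.11% of the reads in U2AF2 libraries and 28.2 ± 2.32% in SRSF1 libraries (SD, n = 3 each). Peaks that overlapped a listed snoRNA, scaRNA or snRNA peak held 0.253 ± 0.0486% of the reads with U2AF2 and 11.9 ± 1.20% with SRSF1. Neither measure overlapped between the proteins. In an exact permutation test each of 7 library measures, these among them, gave a two-sided p of 0.1, the smallest that 3 against 3 libraries allow (0.1 after adjustment over the 7).

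**Figure D1:**
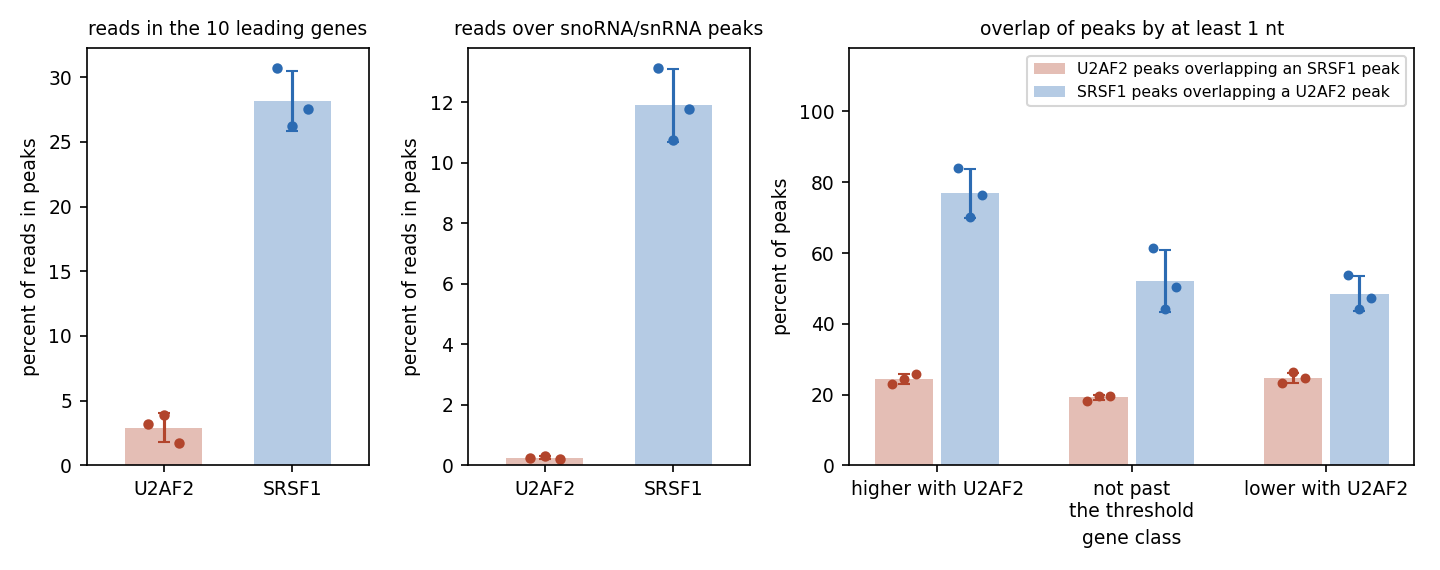
Left and middle, percent of the reads in peaks held by the 10 leading genes and by peaks over snoRNA, scaRNA or snRNA peaks, in U2AF2 and SRSF1 libraries. Right, percent of U2AF2 peaks and of SRSF1 peaks that overlap a peak of the other protein in any of its libraries, by gene class. Points are libraries, bars are means and error bars are SD (n = 3). The 10 leading genes hold 2.92% of the reads in U2AF2 libraries, against 28.2% in SRSF1 libraries.

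In limma's test on log2 shares with Benjamini-Hochberg adjustment, 1459 of the 3180 genes (45.9%) were higher with U2AF2 and 614 (19.3%) were lower, 65.2% in all. All 3 U2AF2 values lay above all 3 SRSF1 values in 1671 genes (52.5%), and below them in 657 (20.7%). The median log2 difference of all genes was 0.72. It was 0.07 with median-of-ratios scaling and 0.29 with quantile normalization, and the calls moved with it to 673 higher (21.2%) and 835 lower (26.3%), and to 815 higher (25.6%) and 664 lower (20.9%). Directions near the median therefore depend on the scaling. Some directions also depend on the measure. With the number of peaks per gene in place of reads, 334 of the 1459 higher calls were called lower. With only the single highest peak of each gene, 130 were. No lower call was called higher by either measure.

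**Figure D2:**
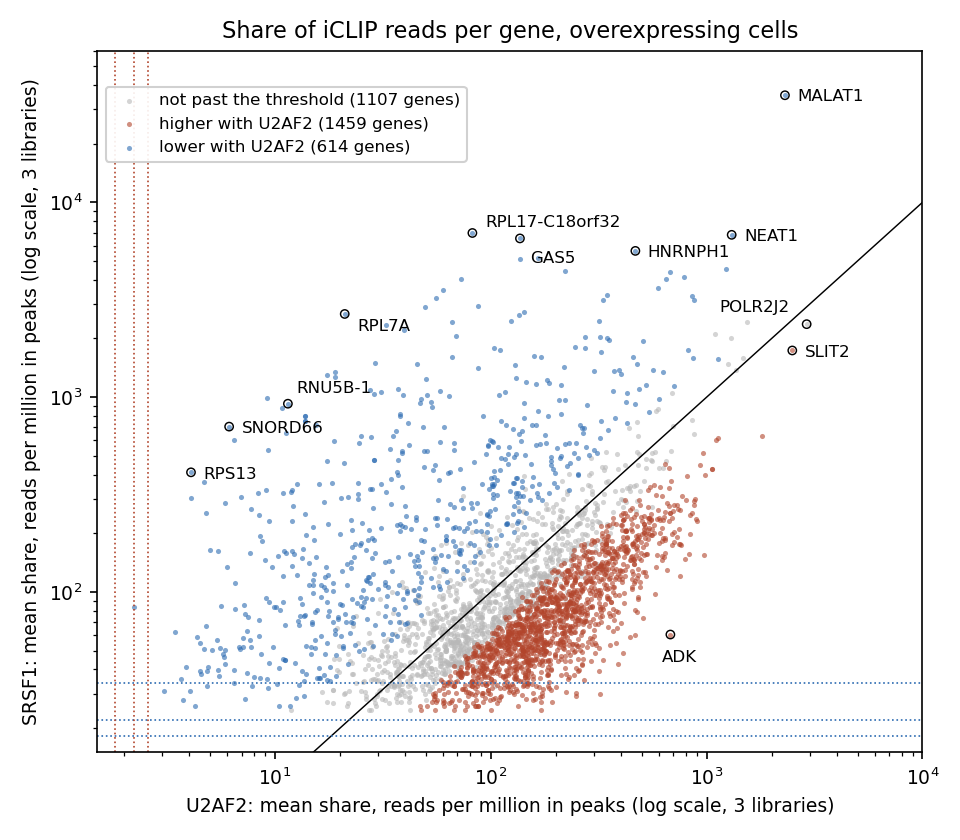
Mean share of each of 3180 genes with U2AF2 (x axis) and SRSF1 (y axis), RPM in peaks, both on log scales. The solid line marks equal shares and dotted lines mark the share of a 6-read peak in each library. The genes lower with U2AF2 spread far above the line, up to RPL7A at a log2 difference of -7.08, while those higher lie in a narrow band that reaches 3.61 at ADK. A tested gene needs at least 18.2 to 34.2 RPM in the SRSF1 libraries and 1.82 to 2.59 in the U2AF2 libraries. This limits the higher side more than the lower.

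The lower side was led by snoRNAs, snoRNA hosts, ribosomal protein genes and U5 snRNA. RPL7A, a protein of the large ribosomal subunit, had 13.0, 31.9 and 18.2 RPM in U2AF2 libraries, against 3092, 2352 and 2574 in SRSF1 libraries. The groups were far apart, and the log2 difference was -7.08 ± 0.34 (SE, adjusted p = 5.02e-06). In each SRSF1 library its leading peak overlapped a peak listed under SNORD36C, a snoRNA in 1 of its introns, and all of its SRSF1 reads lay on peaks of this kind. SNORD66 had 8.14, 6.90 and 3.34 RPM with U2AF2, against 747, 695 and 675 with SRSF1, a log2 difference of -6.94 ± 0.36 (adjusted p = 7.56e-06). SNORD110 gave -6.76 ± 0.50 (adjusted p = 3.11e-05). These snoRNAs, printed above, guide methylation of ribosomal RNA and are cut from introns of host genes.

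RNU5B-1 had 11.1, 20.3 and 3.04 RPM with U2AF2, against 861, 874 and 1040 with SRSF1. It differed by -6.71 ± 0.62 on the log2 scale (adjusted p = 9.92e-05), and its lowest U2AF2 value came from library 3, the one with other gene IDs. EIF4A2, a translation initiation helicase, averaged 32.6 ± 20.6 RPM with U2AF2 and 2347 ± 224 with SRSF1 (SD, n = 3 each), a log2 difference of -6.36 ± 0.42 (adjusted p = 1.93e-05). Peaks over small RNAs held 98.5% of its SRSF1 reads, and the leading one, at chr3:186502589-186502636 (hg19, plus strand) in SRSF1 library 1, overlapped SNORD2.

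RPS13, of the small ribosomal subunit, averaged 4.08 ± 2.33 RPM with U2AF2 and 411 ± 57.8 with SRSF1, a log2 difference of -6.80 ± 0.43 (adjusted p = 1.51e-05). It had no listed small RNA peak under its peaks. The small RNA share is a lower bound, because snoRNAs whose IDs the files do not list cannot be seen. Whether such a snoRNA lies under the peaks of RPS13 was not tested. RPL17-C18orf32, a readthrough of a ribosomal protein gene whose reads cannot be told from those of RPL17, averaged 82.1 ± 23.4 RPM with U2AF2 and 6961 ± 386 with SRSF1. MTRNR2L1, a nuclear copy of mitochondrial 16S rRNA sequence, averaged 9.20 ± 2.32 with U2AF2 and 986 ± 137 with SRSF1, and its reads may belong to the mitochondrial RNA. ENSG00000200729, an ID with no symbol in the name table, averaged 19.0 ± 11.5 with U2AF2 and 1338 ± 79.4 with SRSF1. Its leading peak lay inside that of GAS5, a gene given below, in all 3 U2AF2 libraries and in SRSF1 libraries 2 and 3. The 2 IDs may therefore share reads and are not separate contacts there.

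The 5 highest SRSF1 shares were those of MALAT1, RPL17-C18orf32 (6961 ± 386, given above), NEAT1, GAS5 and HNRNPH1. MALAT1, a long non-coding RNA of nuclear speckles, had 2078, 3014 and 1824 RPM with U2AF2, against 39791, 33407 and 33182 with SRSF1. It differed by -3.97 ± 0.19 (adjusted p = 5.02e-06), although it was also among the 5 highest genes with U2AF2. Its leading peaks lay close together, at chr11:65269509-65269518 in U2AF2 library 1 and chr11:65269510-65269543 in SRSF1 library 1 (hg19). NEAT1, the scaffold of paraspeckles, averaged 1306 ± 129 with U2AF2 and 6811 ± 717 with SRSF1 (log2 difference -2.38). GAS5, a snoRNA host, had 124, 170 and 116 RPM with U2AF2, against 6994, 5958 and 6630 with SRSF1. HNRNPH1, which encodes a G-tract binding splicing regulator, averaged 467 ± 174 with U2AF2 and 5633 ± 211 with SRSF1.

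The higher genes with the largest differences had many U2AF2 peaks and few SRSF1 peaks, and these peaks enter the share. ADK, adenosine kinase, had 695, 657 and 686 RPM with U2AF2, against 39.9, 97.1 and 44.3 with SRSF1. It had the largest positive difference of the genes named by rule, 3.61 ± 0.35 (adjusted p = 0.000123), from 104 peaks on average with U2AF2 and 2 with SRSF1. The leading peak was the same in both proteins: it lay at chr10:76045411-76045448 in U2AF2 library 1 and at chr10:76045410-76045453 in SRSF1 library 1 (hg19, plus strand). SLMAP, a membrane protein gene, had 255, 264 and 229 RPM with U2AF2, against 34.2, 27.3 and 29.5 with SRSF1 (log2 difference 3.04 ± 0.23, adjusted p = 3.29e-05). Its 1 SRSF1 peak, again, overlapped the leading U2AF2 peak. This SRSF1 peak held 6, 9 and 8 reads in libraries 1 to 3, near the minimum of 6.

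ZNF652 gave 3.09 ± 0.24 (adjusted p = 3.74e-05), with only 6, 8 and 8 reads in the SRSF1 libraries. KIF1B, a kinesin, gave 3.27 ± 0.34. FTX, a non-coding RNA, gave 3.02 ± 0.76, but its share was 446, 472 and 1339 with U2AF2, against 34.2, 57.7 and 269 with SRSF1, so library 3 is high in both. U2AF2 library 3, deposited with other gene IDs, gave FTX 185 peaks, against 48 and 37 in the other two U2AF2 libraries, and whether its annotation assigns peaks differently was not tested. ARL15 (3.47), ZMYM4 (3.22) and PARD3 (3.11), a cell polarity gene, were among the other leading genes in the plot of shares by library, as was PVT1 (3.07). For ARL15, ZMYM4 and PARD3 the sign turned when the single highest peak was compared in place of the summed share.

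**Figure D3:**
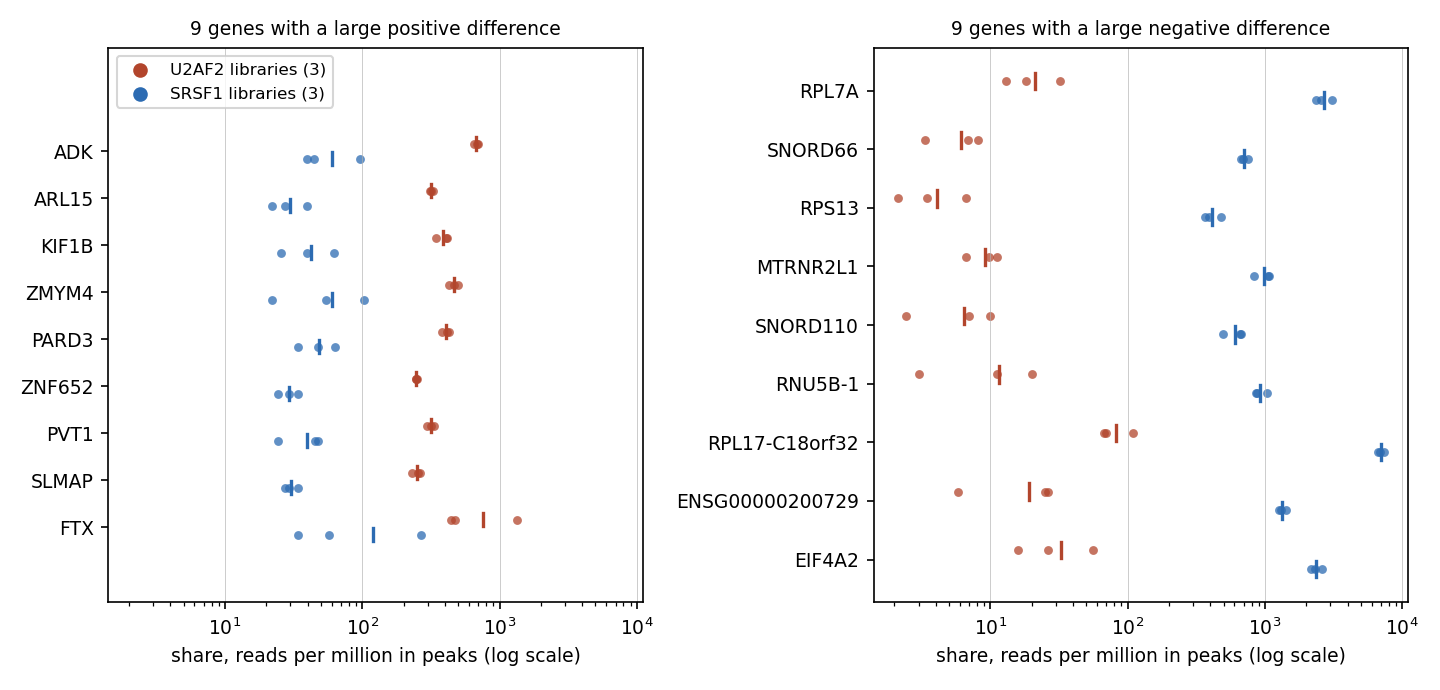
Share of each library, RPM in peaks on a log scale, for 9 genes among those with the largest positive (left) and 9 among those with the largest negative (right) log2 difference. Points are libraries, vertical ticks are means of 3, and U2AF2 is drawn above SRSF1. The groups do not overlap in any of the 18 genes, and ADK has 679 RPM with U2AF2 against 60.4 with SRSF1.

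Few higher calls held under all measures. The higher calls of 10 genes were kept by every alternative that gave them a value: ADK, ZNF652, SLMAP, FBXL20, GPBP1L1, OLA1, CSPP1, EXOC6, MAP3K21 and CSNK1G1. EXOC6, of the exocyst, averaged 621 ± 60.7 with U2AF2 and 145 ± 23.8 with SRSF1. OLA1, an ATPase, averaged 584 ± 25.3 with U2AF2 and 135 ± 22.9 with SRSF1. Of the 614 lower calls, 409 were kept in this way. The same minimum share for a peak in every library, however, gave no value for 565 of the 614 lower and 846 of the 1459 higher genes. It kept 48 lower and 258 higher calls. Only 30 lower and 3 higher calls had a value under every alternative and were kept by all. The 3 were FBXL20, OLA1 and EXOC6.

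The 5 highest U2AF2 shares were those of POLR2J2, SLIT2, MALAT1, ENSG00000203832 and ERC1. POLR2J2, 1 of several near-identical copies of an RNA polymerase II subunit gene whose reads may be split among them, had 2816, 3032 and 2870 RPM with U2AF2, against 2630, 2277 and 2202 with SRSF1. The groups did not overlap, but the difference of 0.30 did not pass the test (adjusted p = 0.0688). SLIT2, an axon guidance ligand, averaged 2493 ± 278 with U2AF2 and 1736 ± 448 with SRSF1 (0.55 ± 0.20, adjusted p = 0.0442). Its sign turned under median-of-ratios scaling (-0.10). ENSG00000203832, an ID with no symbol in the name table, had 1714, 1748 and 1949 RPM with U2AF2, against 662, 671 and 568 with SRSF1. Its groups did not overlap, and it was higher by 1.51 ± 0.15 on the log2 scale (adjusted p = 0.00016). ERC1 averaged 1541 ± 185 with U2AF2 and 2441 ± 1024 with SRSF1 and did not pass the test (adjusted p = 0.163).

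The transcripts of the 3 proteins of the study were read next. HNRNPA1 had 29.2, 51.8 and 61.7 RPM with U2AF2, against 856, 1084 and 988 with SRSF1 (-4.42 ± 0.31, adjusted p = 2.2e-05). These cells also carry the T7-tagged hnRNP A1 transgene, and any reads from it were not told apart from those of the native gene. SRSF1, whose own RNA is regulated by SRSF1, had 222, 318 and 94.5 with U2AF2, against 867, 1135 and 1471 with SRSF1 (-2.59 ± 0.43, adjusted p = 0.00159). U2AF2 averaged 180 ± 27.6 with U2AF2 and 284 ± 80.2 with SRSF1. The groups of U2AF2 did not overlap but the difference of -0.63 did not pass the test (adjusted p = 0.0678).

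Genes for splicing regulators were mostly lower with U2AF2. Of 9 SR protein genes tested, of 14 listed, 1 was higher and 6 were lower, with a median log2 difference of -1.71 against 0.72 for all genes tested. Among all genes tested, 45.9% were higher and 19.3% were lower. SRSF6 (-2.64 ± 0.42), SRSF1 and SRSF2 (-2.54 ± 0.41) had the smallest adjusted p of the lower ones. SRSF10, a phosphorylation-dependent splicing repressor, was higher, at 672 ± 84.9 RPM with U2AF2 and 231 ± 45.0 with SRSF1 (1.55 ± 0.21, adjusted p = 0.000667), but had the opposite sign by number of peaks (-1.44). Of 22 hnRNP genes tested, 1 was higher and 15 were lower (median -1.79). HNRNPU (-3.26 ± 0.20) and HNRNPH1 (-3.65 ± 0.24) were among the lower ones. HNRNPU averaged 329 ± 54.9 with U2AF2 and 3161 ± 568 with SRSF1, and PTBP2 was the 1 higher (0.68, adjusted p = 0.0494, near the threshold).

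Of 18 SR-related cofactors and SR protein kinases, 3 were higher and 9 were lower (median -0.75), where 45.9% of all genes tested were higher and 19.3% lower. ARGLU1 (-2.92 ± 0.21), PNISR (-2.70 ± 0.18) and LUC7L3 (-2.48 ± 0.17) were lower. SRPK2 (2.35 ± 0.30, adjusted p = 0.000448) and SRPK1 (2.09 ± 0.28, adjusted p = 0.000587), kinases of SR proteins, were higher by share and had the opposite sign in the single highest peak. SCAF11 was the third higher gene (0.86). Of 10 genes for 3′ splice site and U2 snRNP factors, 2 were higher and 5 were lower (median -0.92). SF3B1 gave -2.63 ± 0.31 and SF3A2 gave -2.41 ± 0.30, whereas U2AF1, the small U2AF subunit, gave 0.81 ± 0.24 (adjusted p = 0.0184) and DDX46 gave 0.68 ± 0.17. SF3B3 gave -1.21 ± 0.17, but with peaks over small RNAs left out it gave 0.59.

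**Figure D4:**
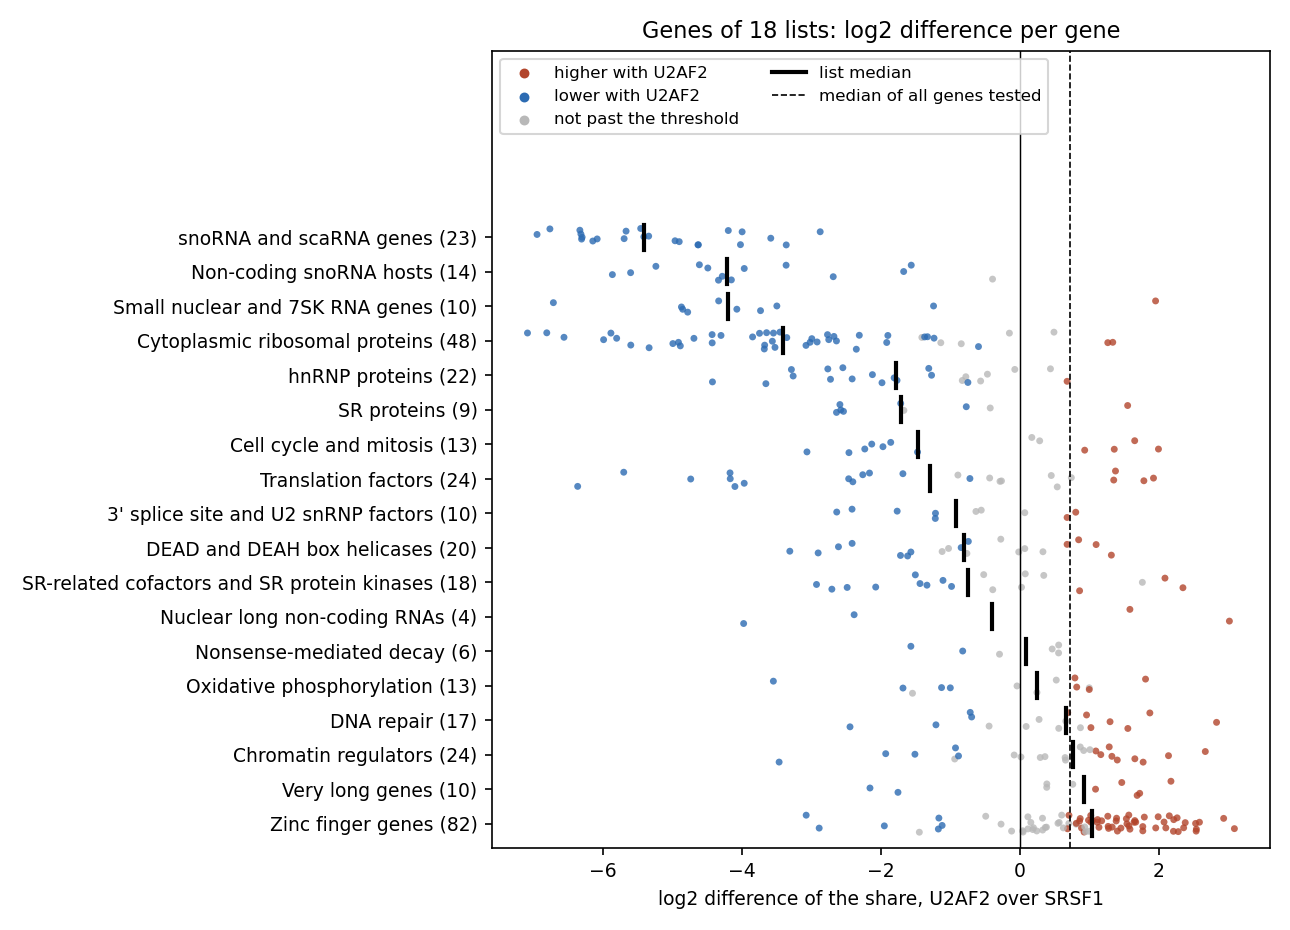
Log2 difference of the share, U2AF2 over SRSF1, of each tested gene in 18 lists, with the number tested in brackets. Thick ticks are list medians, the dashed line is the median of all 3180 genes (0.72) and the vertical jitter has no meaning. The lists run down the page from snoRNA and scaRNA genes at a median of -5.41 to zinc finger genes at 1.03.

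Most tested ribosomal protein and small RNA genes were lower with U2AF2. Of 48 tested genes on the ribosomal protein list, 2 were higher and 41 were lower, with a median of -3.40. Among all genes tested, 45.9% were higher and 19.3% were lower. RPL23A (-5.88 ± 0.20) and RPL13A (-5.80 ± 0.18) were among the lower ones. Their leading SRSF1 peaks overlapped SNORD42B and SNORD34. In 23 of the 48, peaks over small RNAs held more than 50% of the SRSF1 reads. With those peaks left out, 31 of the genes still had a peak in all 6 libraries, of which 2 were higher and 22 were lower (median -2.53), where 39.1% of all genes tested were higher and 18.1% lower. The 2 higher genes were RPS9 (1.34) and RPL7L1 (1.27), which encodes a ribosomal protein-like factor.

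All 23 tested snoRNA and scaRNA genes were lower: 17 SNORD, 4 SNORA and 2 SCARNA, with a median of -5.41. Among all genes tested, 45.9% were higher and 19.3% were lower. The list held 472 genes, of which 166 had a peak in any of the 6 libraries. A tested gene needed at least 18.2 to 34.2 RPM with SRSF1 but only 1.82 to 2.59 with U2AF2. The 23 therefore do not stand for the whole list. SNORD12 averaged 5.44 ± 0.752 with U2AF2 and 162 ± 10.9 with SRSF1 (-4.90 ± 0.27). Its host ZFAS1 averaged 66.3 ± 8.06 with U2AF2 and 1611 ± 87.1 with SRSF1. Of 14 non-coding snoRNA hosts, 13 were lower and none was higher (median -4.21), with GAS5 at -5.60 ± 0.19 and SNHG1 at -5.23 ± 0.21. As these genes overlap the snoRNAs they carry, host and snoRNA reads were not told apart.

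Of 10 small nuclear and 7SK RNA genes tested, of 52 with a peak in any of the 6 libraries, 9 were lower and 1 was higher (median -4.20). Among all genes tested, 45.9% were higher and 19.3% were lower. RNU5A-1, RNU5D-1 and RNU5F-1 gave -4.78, -4.87 and -4.85, and reads may be split among these similar U5 genes. RNU4-2, a U4 snRNA, was the exception, at 335, 403 and 222 RPM with U2AF2, against 120, 72.9 and 59.0 with SRSF1 (1.96 ± 0.34, adjusted p = 0.00191). It had 1 peak in each library. Of 24 translation factor genes, 4 were higher and 13 were lower (median -1.28). EEF2 (-4.73 ± 0.25), the elongation translocase, EEF1A1 (-4.16 ± 0.20) and EIF4A1 (-4.10 ± 0.18) were lower, and EIF5A2 (1.93 ± 0.27) and EIF4G3 (1.35 ± 0.22) were higher. EEF1A1 had no listed small RNA peak, while such peaks held 72.5% of the SRSF1 reads of EEF2.

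Zinc finger genes were the list with the highest median, 1.03: of 82 tested, 51 were higher and 6 were lower. Their summed share was 1.63%, 1.64% and 1.61% of the reads with U2AF2 and 1.04%, 1.04% and 0.971% with SRSF1. ZNF662 (2.93 ± 0.28) and ZNF292 (2.54 ± 0.25) were higher, and ZNF664 (-3.07 ± 0.42), ZNF512B (-2.88 ± 0.29) and ZNF711 (-1.95 ± 0.25) were lower. Over all genes tested 45.9% were higher and 19.3% were lower, with a median of 0.72. The list median was 0.39 with median-of-ratios scaling, against 0.07 for all genes, -0.50 by number of peaks, against -0.76, and -0.07 by the single highest peak, against -0.48. It lay below that of all genes with an equal minimum share (0.084 against 0.45) and with a peak in at least 3 of 6 libraries (0.97 against 1.12).

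Other lists held genes called in both directions. Of 24 chromatin regulators, 9 were higher and 5 were lower, with a median of 0.77 against 0.72 for all genes. It was 0.12 with median-of-ratios scaling, against 0.07 for all genes, and -1.39 by the highest peak, against -0.48. NSD1 (2.67), JMJD1C (2.14) and SMARCC1 (1.78) were higher, and CHD4 (-3.46) and BRD2 (-1.93) were lower. Of 17 DNA repair genes, 7 were higher and 4 were lower, with BRIP1 (2.83), FANCL (1.87) and ATM (0.96) higher and PARP1 (-2.44) lower. The median of that list was 0.66. The shares of these 2 lists that were higher or lower are near those of all genes tested (45.9% and 19.3%). Of 13 cell cycle genes, 4 were higher and 7 were lower (median -1.47), with KIF11 (2.00) higher and MKI67 (-3.06), CENPF (-2.46) and ASPM (-2.13) lower.

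Among 20 DEAD and DEAH box helicase genes, 4 were higher and 9 were lower (median -0.80). DDX5 (-3.31 ± 0.26), DDX39B (-2.61 ± 0.15) and DDX17 (-2.41 ± 0.16) were lower, and DDX39B did not pass the test once peaks over small RNAs were left out. Of 13 oxidative phosphorylation genes 4 were higher and 4 were lower, with a median of 0.25 by share, against 0.72 for all genes, and -0.40 with median-of-ratios scaling, against 0.07. NDUFV3 (1.81) was higher and ATP5F1B (-3.54) lower. Of 6 nonsense-mediated decay genes none was higher, and DHX34 (-1.57) and SMG5 (-0.82) were lower. Of 10 very long genes 5 were higher, such as GPC6 (2.18), and 2 were lower, DST (-2.15) and LRP1B (-1.75). Over all genes tested 45.9% were higher and 19.3% were lower, and the very long genes were near these shares. Of 4 nuclear long non-coding RNAs, FTX and OIP5-AS1 (1.59) were higher and MALAT1 and NEAT1 lower. No histone gene had a peak in all 6 libraries.

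The median gene length in GENCODE 29 was 50.4 kb for the higher genes and 24.0 kb for the lower genes, against 41.5 kb for all tested genes. The median number of exons was 10 for the higher genes and 12 for the lower genes, against 11 for all tested genes. Of the 45 tested genes under 1 kb, 4 were higher and 39 were lower. Single-exon genes numbered 8 of the higher and 46 of the lower, of 65 in all. A median higher gene had 12.7 peaks with U2AF2 and 1.67 with SRSF1, and a median lower gene had 7.33 with U2AF2 and 3 with SRSF1. The U2AF2 libraries were also the deeper ones, and the part of depth in these patterns was not tested.

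Peak overlap was read in the higher and the lower genes as a description, since the U2AF2 reads that divide these classes are those of the peaks counted. In the higher genes 84.0%, 70.2% and 76.4% of SRSF1 peaks in libraries 1 to 3 overlapped a U2AF2 peak by at least 1 nt, against 53.9%, 44.3% and 47.3% in the lower genes. The values of the 2 classes did not overlap. Of U2AF2 peaks in libraries 1 to 3, 23.1%, 24.4% and 25.9% overlapped an SRSF1 peak in the higher genes, against 23.3%, 26.3% and 24.6% in the lower genes. Of all U2AF2 peaks, 14.2%, 15.5% and 15.5% overlapped an SRSF1 peak, and of all SRSF1 peaks 65.6%, 48.7% and 54.9% overlapped a U2AF2 peak. The unequal shares go with 8.77 times as many U2AF2 peaks. In all these values a peak in any of the other protein's libraries counted. Single U2AF2 libraries overlapped 57.3% to 60.1% of the peaks of SRSF1 library 1, 40.7% to 43.5% of library 2 and 46.9% to 49.2% of library 3. The other SRSF1 libraries overlapped 57.0% and 58.65%, 32.5% and 41.15%, and 37.9% and 49.3%. Of U2AF2 peaks, 59.9% to 67.7% overlapped another U2AF2 library and 7.33% to 10.3% a single SRSF1 library.

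A minimum set to the share of a 6-read peak in the shallowest library, 34.2 RPM, was also applied to all 6 libraries. Then 1801 genes had a peak in all 3 U2AF2 libraries and 2004 in all 3 SRSF1 libraries, and 875 in all 6. With U2AF2 only, 224 genes were seen in all 3 libraries and in none of SRSF1. With SRSF1 only, 814 were, among them 382 of the 614 lower genes and 112 small nuclear or nucleolar RNA genes.

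The study asks how hnRNP A1 levels alter the contacts of both proteins, so the contrast was set against that in control cells. Of 1650 genes with a peak in all 12 libraries, the U2AF2 minus SRSF1 difference was higher in overexpressing cells for 739 (44.8%) and lower for 296 (17.9%), 62.7% in all, by limma's interaction term. The median log2 difference was 0.62 in overexpressing cells and -0.69 in control cells, and the median change over all genes was 1.08. With median-of-ratios scaling 326 genes were higher (19.8%) and 483 were lower (29.3%), so which direction held more calls depends on the scaling. HNRNPH1 averaged 467 ± 174 RPM with U2AF2 and 5633 ± 211 with SRSF1 in overexpressing cells, and 7794 ± 744 with U2AF2 and 3518 ± 422 with SRSF1 in control cells. Its differences were -3.65 and 1.15 on the log2 scale, a change of -4.80 ± 0.31 (adjusted p = 2.03e-07).

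ZFAS1 changed likewise, with differences of -4.61 in overexpressing cells and 0.32 in control cells. MALAT1 gave -3.97 in overexpressing cells and -0.41 in control cells, where the median of all genes was -0.69. It was not tested in control cells alone. Its U2AF2 share was 2305 ± 627 in overexpressing cells and 18456 ± 2441 in control cells, and its SRSF1 share was 35460 ± 3752 in overexpressing cells and 24534 ± 2857 in control cells. NOP56, a core box C/D protein gene and the host of SNORD110, gave -5.90 in overexpressing cells and -1.32 in control cells. On the other side, TRAF3, a signalling adaptor, gave 1.69 in overexpressing cells and -3.29 in control cells, a change of 4.98 ± 0.58 (adjusted p = 2.01e-05). TXNDC15 gave 2.63 in overexpressing cells and -2.12 in control cells.

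Over all 1650 genes the median difference was 0.62 in overexpressing cells and -0.69 in control cells, with 44.8% higher and 17.9% lower. By list, zinc finger genes had a median difference of 1.02 in overexpressing cells and -1.09 in control cells (28 of 37 higher, 2 lower). The turn in sign is thus shared by the median of all genes. SR protein genes had -1.69 in overexpressing cells and 0.17 in control cells (5 of 8 lower, 2 higher). The snoRNA and scaRNA genes had -6.11 in overexpressing cells and -1.77 in control cells (13 of 14 lower). Overexpressing and control libraries were not made from the same cells, and cell line, transgene and selection antibiotic cannot be told apart in the contrast.

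**Figure D5:**
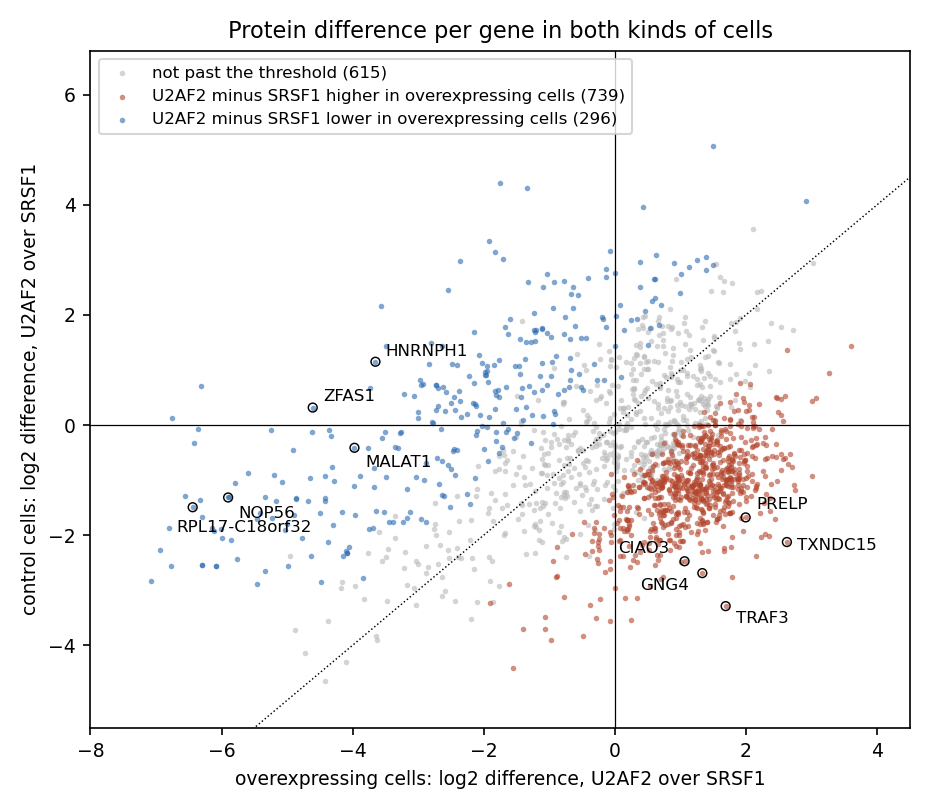
Log2 difference of the share, U2AF2 over SRSF1, in overexpressing cells (x axis) and control cells (y axis) for 1650 genes with a peak in all 12 libraries. Colours mark genes whose difference passed limma's interaction test, and the dotted line marks equal differences. HNRNPH1 lies at -3.65 in overexpressing cells and 1.15 in control cells, and TRAF3 at 1.69 in overexpressing cells and -3.29 in control cells.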

How the data were processed

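The authors deposited 1 peak list per iCLIP library on hg19, which per the file headers came from CLIPper. TopHat and Bowtie2 are named in the submitters' processing notes without version. Each deposited peak carries a p-value and, at the end of its name, the number of reads, which is the value used here. Peaks of at least 6 reads were summed per gene ID with the version removed, and divided by the reads in all peaks of the library. RNA-seq files were not used.

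The tests were limma 3.58.1 with a trend on log2 shares (R 4.3.3), with 0.05 on adjusted p, and exact permutation tests for library measures. The limma fit was also run on simulated reads per gene, with 200 genes changed. That simulation held no single peaks, so it could not test the effect of the 6-read minimum per peak. A floor is the share of a 6-read peak and covers counting error only. Whether PCR duplicates were removed is not given in the sources used here. Gene symbols came from the name table, which matched 3087 of 3180 IDs, and lengths from GENCODE 29. No genome of the files' build was used.

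Named genes were the 10 largest differences in each direction among genes past the threshold without overlap and with at least 100 RPM in the higher group, the 5 highest genes of each protein, 5 picked by name, up to 3 per list and direction, and the 5 smallest adjusted p in each direction of the interaction. The members, lists and rules were chosen with earlier results of these data known. The genes kept under every alternative were named after their values were seen. Scalings, peak minima, peak-based measures, left-out libraries and a replicate block were tried as alternatives. Some genes that this rule names are not reported here.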

Additional observations from a re-analysis of the deposited data

Results flagged for a closer look

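In overexpressing against control cells, 1035 genes had a protein difference that changed by limma's interaction test. Among the genes named by rule, the change of the log2 difference was -4.58 for NOP56, -4.93 for ZFAS1, -4.80 for HNRNPH1, -3.56 for MALAT1 and -4.95 for RPL17-C18orf32. It was 4.75 for TXNDC15, 3.54 for CIAO3, 4.02 for GNG4, 3.67 for PRELP and 4.98 for TRAF3. Each of these was singled out by a test of the difference between the 2 kinds of cells. All 10 kept their sign and their call under every alternative that gave them a value. Among them, an equal minimum share gave a value only to HNRNPH1 and MALAT1. The alternatives for this test were median-of-ratios scaling, an equal minimum share, a replicate block and left-out libraries. The others, among them quantile normalization, stricter peak minima, the number of peaks and the single highest peak, were not tried. Leaving out peaks over small RNAs was not tried either, although NOP56 and ZFAS1 are snoRNA hosts.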

How the results depend on the processing

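Of the lower calls 409 of 614, and of the higher calls 10 of 1459, were kept under every alternative that gave the gene a value. Only 30 lower and 3 higher calls had a value under every alternative and were kept by all. An equal minimum share gave no value for 565 of the lower and 846 of the higher genes. Higher calls numbered 673 with median-of-ratios scaling, 815 with quantile normalization, 167 by number of peaks and 462 by the single highest peak, where lower calls numbered 1338 by number of peaks and 1304 by the highest peak. An equal minimum share gave 350 calls, 258 higher and 92 lower. A minimum of 10 reads gave 1044, 649 higher and 395 lower, and peaks with p of at most 0.001 gave 1001, 609 higher and 392 lower. These settings test fewer genes. A peak in at least 3 of 6 libraries gave 7930, 7152 of them higher. Leaving out each library in turn gave 1622 to 3017 calls, 1072 to 2212 higher and 550 to 805 lower, the most without SRSF1 library 1. With peaks over small RNAs left out, an alternative chosen after seeing the data, 1210 were higher and 561 lower.

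With a replicate block, 1435 genes were higher and 618 lower, and 739 and 293 in the interaction. Deviations of log2 shares from each protein's own mean correlated at 0.0484, 0.0541 and 0.00224 between same-numbered libraries. Between differently numbered libraries they correlated at -0.0621 to 0.011. These small values do not settle whether the numbers pair the libraries. For the interaction, median-of-ratios scaling gave 326 higher and 483 lower and an equal minimum share gave 97 calls, 77 higher and 20 lower. Leaving out a library gave 944 to 1510 calls, 660 to 1149 higher and 270 to 361 lower, the most without SRSF1 control library 2. With an equal minimum, the ratio of U2AF2 to SRSF1 turned from above to below 1 for peaks (0.563) and for genes with a peak (0.757).

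Named genes that turned sign were POLR2J2 (-0.35) and SLIT2 (-0.10) with median-of-ratios scaling, ERC1 (1.01) with quantile normalization, and SF3B3 (0.59) without peaks over small RNAs. By number of peaks they were POLR2J2 (-0.52), SLIT2 (-0.024), SRSF10 (-1.44), SCAF11 (-0.95), PTBP2 (-0.44), U2AF1 (-1.26), RPL7L1 (-0.11), RNU4-2 (-3.17), OIP5-AS1 (-0.40), ZNF662 (-0.47) and ATM (-0.13). By the single highest peak they were ARL15 (-1.33), ZMYM4 (-0.27), PARD3 (-0.66), POLR2J2 (-0.66), SLIT2 (-1.84), SRPK2 (-0.69), SRPK1 (-0.47), DDX46 (-1.27), RPL7L1 (-0.46), RPS9 (-0.32), JMJD1C (-0.35), SMARCC1 (-1.79), NSD1 (-0.039), BRIP1 (-0.038) and FANCL (-0.27). With an equal minimum they were POLR2J2 (-1.32), SLIT2 (-2.32), PTBP2 (-0.27), DDX46 (-1.32), EIF4G3 (-0.64) and BRIP1 (-0.21). RNU4-2 has 1 peak in every library, so its value by number of peaks is only the ratio of the libraries' peak totals. The cause of the other turns was not tested. Depth limits the SRSF1 side, where a share under 18.2 RPM cannot be seen.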
